A study of Mus musculus with 6 samples.

Results

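Chymotrypsins and pancreatic elastases are serine proteases that digest protein in the gut, and their transcripts were followed here in the spleen of weanling mice. The genes considered were Ctrb1, Ctrc, Ctrl, Cela1, Cela2a and Cela3b, 6 genes in all. They were chosen because digestive enzyme transcripts had been seen to be higher in lead-exposed spleens in these same arrays, so their differences between the groups are given as a description, without a test. A probe with a single gene symbol in the platform annotation was found for 5 of the 6, among 18069 genes with such a probe, and each of the 5 had 1 probe. No probe of the annotation used here names Ctrb1, the main chymotrypsinogen gene of the mouse, and it has no value here.

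RNA came from spleens of female BALB/c mice aged 21 days. The control group had 3 mice, whose labels name no treatment, and the other group had 3 mice exposed to 0.1 mM Pb (lead) from gestation day 8. Each mouse gave 1 CodeLink mouse whole genome array, read in 1 colour (Cy5). The labels give no route of exposure and no litter.

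In the pancreas, acinar cells make these enzymes as inactive zymogens and store them in granules together with trypsinogen, amylase and lipase. Once the juice reaches the gut, trypsin cuts the zymogens into active enzymes. Chymotrypsins cut proteins after large hydrophobic residues such as tyrosine and phenylalanine, whereas some of the elastases prefer small residues such as alanine. Spleen cells are not known as a source of these zymogens, although neutrophils and other leukocytes carry related proteases of the same fold. The tail of the pancreas lies beside the spleen.

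The promoters of the measured members are shown because their transcripts were high in the same arrays, and because acinar promoters are known for E-boxes bound by the PTF1 complex. The RefSeq promoter table (GRCm38.p6) holds 5 of the 6 members, with 250 bases before and 50 bases after the annotated start of the gene. It has no entry for Ctrc. The 4 sequences of measured genes follow, 5′ to 3′ on the strand of the gene, which is the minus strand in each. Capitals mark matches, on either strand, to CACCTG (an E-box of the PTF1 type, CAGGTG on the other strand), TGGGAA (letters of the RBPJ and RBPJL site, TTCCCA on the other strand), CAAGGTCA (the NR5A2 site) and TATAAA.
Ctrl, chr8:105933813-105934112: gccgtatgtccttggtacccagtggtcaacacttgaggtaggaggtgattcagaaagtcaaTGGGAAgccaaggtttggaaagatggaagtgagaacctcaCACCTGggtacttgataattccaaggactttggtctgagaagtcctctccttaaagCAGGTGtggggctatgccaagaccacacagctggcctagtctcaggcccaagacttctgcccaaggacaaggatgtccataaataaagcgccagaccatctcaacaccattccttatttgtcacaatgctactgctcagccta
Cela1, chr15:100687871-100688170: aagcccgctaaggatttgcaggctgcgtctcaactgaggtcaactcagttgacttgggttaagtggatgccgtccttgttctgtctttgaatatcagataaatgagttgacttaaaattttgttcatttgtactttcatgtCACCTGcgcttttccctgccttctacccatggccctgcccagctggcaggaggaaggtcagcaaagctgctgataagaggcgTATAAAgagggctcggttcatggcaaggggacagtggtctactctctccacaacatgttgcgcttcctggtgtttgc
Cela2a, chr4:141825956-141826255: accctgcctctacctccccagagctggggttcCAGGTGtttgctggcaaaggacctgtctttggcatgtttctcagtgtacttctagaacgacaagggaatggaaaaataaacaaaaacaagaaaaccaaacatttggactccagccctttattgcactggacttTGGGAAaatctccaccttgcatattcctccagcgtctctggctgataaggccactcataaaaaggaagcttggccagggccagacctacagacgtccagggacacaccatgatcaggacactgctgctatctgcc
Cela3b, chr4:137430471-137430770: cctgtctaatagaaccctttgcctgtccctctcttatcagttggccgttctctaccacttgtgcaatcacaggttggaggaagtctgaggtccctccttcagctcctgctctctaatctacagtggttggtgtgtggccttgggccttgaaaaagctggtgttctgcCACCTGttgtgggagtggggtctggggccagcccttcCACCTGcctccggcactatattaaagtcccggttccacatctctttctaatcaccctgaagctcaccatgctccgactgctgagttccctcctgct

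An E-box of this type was present in each of the 4 printed promoters, and in 20.2% of the 32851 promoters of 300 bases in the table. Matches began 149 and 93 bases before the start in Ctrl, 109 before it in Cela1, 218 before it in Cela2a, and 83 and 46 before it in Cela3b. TGGGAA was found in Ctrl, 189 bases before the start, and in Cela2a, 85 bases before it, and 25.6% of all promoters hold it. The promoter of Ctrb1, which has no probe, holds the RBPJ letters on the other strand and no such E-box. TATAAA occurred in Cela1 alone, 27 bases before the start, against 13.6% of all promoters. The NR5A2 letters occurred in none of the 5 member promoters and in 1.56% of all. The E-box and RBPJ letters can overlap by a pair of bases, but no match printed here overlaps another. These are letter matches, and binding was not measured.

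The values deposited are probe intensities on a linear scale, with the median of each array between 0.972 and 0.987. Control arrays followed each other across probes (r = 0.94 to 0.945). Pb replicate 3 was unrelated to every control probe by probe (r = 0.045 to 0.048), so the group comparison rests on 5 arrays, 3 control and 2 Pb. The controls were also unrelated among themselves in array rows 402 to 409 (r = 0.038 to 0.17), and these 638 of 35587 probes were left out. The brightness of Pb replicate 2 drifted along the array, by -2.52 to 2.37 on the log2 scale between bands of rows, and a smooth surface over position and level was removed from each array before the comparison. Its r against the controls went from 0.656 to 0.666 before that correction to 0.917 to 0.918 after it, a gain in part built in, since the controls are part of the reference for the surface. Its scatter stayed wider than that of the other arrays (scaled median absolute deviation of 0.59 against 0.24 to 0.3). Spleen markers given as examples were above the array median, near 0 on the corrected log2 scale, on all 5 arrays. Control means were 8.17 for Ighm, 5.71 for Ms4a1, 2.55 for Spic and 3.04 for Tlx1. In Pb replicates 1 and 2 the values were 8.05 and 8.15 for Ighm, 5.62 and 5.72 for Ms4a1, 2.77 and 2.79 for Spic, and 3.18 and 2.83 for Tlx1. Not every listed spleen marker was bright, and Nkx3-2 had a control mean of -0.05.

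Both Pb spleens had more signal than all 3 control spleens for each of the 5 measured members after correction, by log2 differences from 1.22 for Cela1 to 6.78 for Cela3b. The same separation was found in 13% of the 34949 probes measured, and nothing is read from the members' count because they were chosen from this contrast. The median log2 difference was 4.93 over the 5 members and 0.031 over all measured probes. A difference above 3 was seen in 4 members and in 0.0801% of all measured probes. Cela1 differed from the other 4 in having a bright control signal and a small difference. All 5 probes passed the filter on dim probes, but Cela3b, at the 23.5th percentile of the control means, passed through its Pb values. In whole-tissue RNA, more cells of a type and more RNA per cell cannot be told apart.

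Ctrc is chymotrypsin C, which also cleaves trypsinogen. Its probe (probe 311058, array row 311, column 58) had deposited intensities of 0.253, 0.447 and 0.533 in control replicates 1, 2 and 3, and of 16.7 and 51.3 in Pb replicates 1 and 2. Both Pb arrays were far above every control before any correction. Corrected log2 values were -1.86, -1.08 and -0.8 in the controls and 3.73 and 4 in the Pb arrays. The difference was 5.11 on the log2 scale, from a control mean of -1.25 ± 0.55 (SD, n = 3) to a Pb mean of 3.86 ± 0.19 (SD, n = 2), or 34.6-fold. Of the 5 members Ctrc had the closest pair of corrected Pb values, 0.26 apart. The RefSeq table, built on the C57BL/6J strain, lists Ctrc as a transcribed pseudogene, whereas these mice were BALB/c, so the array shows transcript and says nothing of a protein.

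Ctrl encodes a chymotrypsin-like protease. At its probe (probe 232020, array row 232, column 20) the deposited intensities were 0.86, 1.03 and 0.992 in the controls and 6.07 and 43.8 in Pb replicates 1 and 2. The controls were close together and both Pb arrays stood above them, Pb replicate 2 the more so. After correction the values were -0.39, -0.07 and 0.05 in controls and 2.81 and 3.85 in Pb. The log2 difference was 3.46, from a control mean of -0.14 ± 0.23 (SD, n = 3) to 3.33 ± 0.73 (SD, n = 2), or 11-fold.

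Cela2a, a pancreatic elastase, had deposited intensities of 0.285, 0.526 and 0.294 in the controls and 10.5 and 17 in the Pb arrays (probe 359085, array row 359, column 85). The groups were widely separated, and here the correction changed Pb replicate 2 by 0.16 log2 units and Pb replicate 1 by -0.47. Corrected values were -1.84, -0.77 and -1.41 in controls and 2.93 and 4.24 in Pb. That gives a log2 difference of 4.93 between a control mean of -1.34 ± 0.54 (SD, n = 3) and a Pb mean of 3.59 ± 0.93 (SD, n = 2), or 30.5-fold.

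Cela3b, another pancreatic elastase, had the greatest difference of the 5. Its probe (probe 24031, array row 24, column 31) gave 0.127, 0.451 and 0.229 in controls, 33.2 in Pb replicate 1 and 3.83 in Pb replicate 2 as deposited. Pb replicate 1 was thus the brighter Pb array at this probe, and the weaker one at the other 4. Row 24 lies where Pb replicate 2 was dim, and the correction raised that array by 2.53 log2 units, to 4.47, beside 4.95 in Pb replicate 1 and -2.99, -1.5 and -1.73 in the controls. The log2 difference was 6.78, from -2.07 ± 0.8 (SD, n = 3) to 4.71 ± 0.34 (SD, n = 2), or 110-fold, and 5.58 before correction. With the surface fitted to the mean of the controls alone, a choice made after the data were seen, it was 6.15. Without Pb replicate 1 it was 5.09, and without Pb replicate 2 it was 7.02. The control signal is low on the array and no detection call was used, so the size of this fold is uncertain.

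Cela1 is also an elastase of the mouse pancreas. Its deposited intensities (probe 278017, array row 278, column 17) were 10.2, 8.21 and 8.07 in controls, 8.59 in Pb replicate 1 and 69.9 in Pb replicate 2. As deposited, Pb replicate 1 lay within the range of the controls, and Pb replicate 2 alone was high. The correction lowered Pb replicate 2 by 1.26 and raised Pb replicate 1 by 0.44, which brought the values to 3.18, 2.97 and 2.82 in controls and 3.54 and 4.87 in Pb. The log2 difference was 1.22, from 2.99 ± 0.18 (SD, n = 3) to 4.21 ± 0.94 (SD, n = 2), or 2.32-fold. The gap between the highest control and Pb replicate 1 was 0.36, smaller than the 0.44 added to that array. With a running median over array rows in place of the surface the difference was 0.27 and the groups overlapped. Without Pb replicate 2 it was 0.55, and without Pb replicate 1 it was 1.87.

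**Figure D1:**
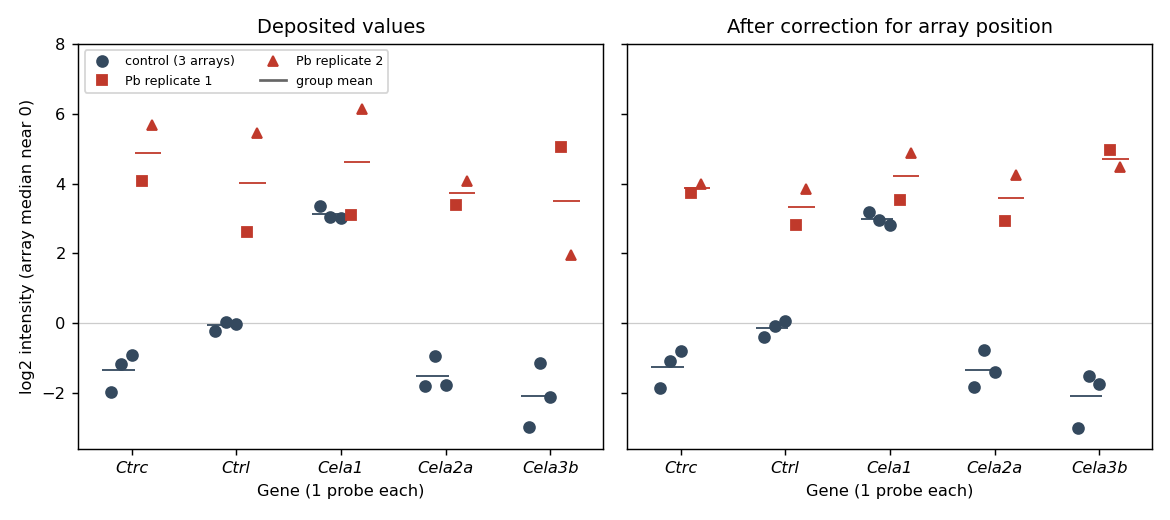
Log2 intensity of the 5 member probes on each array, as deposited (left) and after correction for position (right); circles are the 3 controls, squares Pb replicate 1, triangles Pb replicate 2, and short lines the group means. Ctrc, Ctrl, Cela2a and Cela3b are separated on both sides, while Cela1 is separated after correction alone.

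The 2 Pb spleens were also set against each other. Pb replicate 1 was above the control mean by 0.55 for Cela1, 2.95 for Ctrl, 4.27 for Cela2a, 4.98 for Ctrc and 7.02 for Cela3b on the corrected log2 scale. In Pb replicate 2 the same differences were 1.88, 3.98, 5.59, 5.25 and 6.54. Pb replicate 2 was thus higher by 1.33 for Cela1, 1.31 for Cela2a, 1.03 for Ctrl and 0.26 for Ctrc, and lower by 0.48 for Cela3b. All 5 gaps lie within the 5th and 95th percentiles of the same gap over all probes, -1.67 and 1.42. Before correction the gap ran from -3.11 for Cela3b to 3.02 for Cela1. The correction widened the gap of Cela2a, from 0.69 to 1.31, and narrowed those of the other 4.

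The spots around the member probes did not share their signal. Within 1 row and 3 columns of each member probe lay 14 to 19 other probes, after leaving out listed pancreatic genes, and their median log2 differences were 0.01 around Ctrc, -0.1 around Ctrl, 0.04 around Cela1, 0.04 around Cela2a and -0.05 around Cela3b. No neighbour reached the difference of its member. The nearest was around Cela1, where the highest neighbour had 1 against 1.22 for Cela1 itself. As deposited, the neighbours of Ctrl, Cela1 and Ctrc were bright in Pb replicate 2 by medians of 1.5, 1.36 and 1.96, and those of Cela3b were dim by -2.72. The correction removes such shared brightness, so medians near 0 are in part built in.

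**Figure D2:**
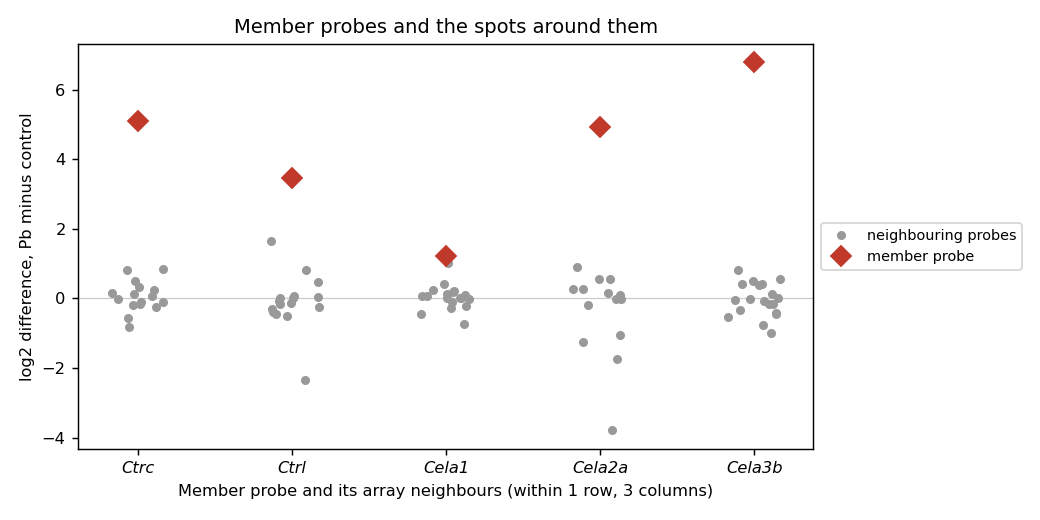
Log2 difference, Pb minus control, of each member probe (red diamond) and of the probes within 1 row and 3 columns of it (grey circles). Member probes stand above their neighbours, by a wide margin except at Cela1, where 1.22 compares with a highest neighbour of 1.

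In the genome, Cela2a and Ctrc are direct neighbours on chromosome 4, with 0 genes between them in the RefSeq order of protein-coding genes and transcribed pseudogenes. Cela3b is on the same chromosome, 79 genes away from Cela2a, beside Cela3a, which has no probe. The genes that flank the Cela2a and Ctrc pair were Casp9, a caspase, with a log2 difference of 0.27, and Efhd2, with 0.09. Ctrl is on chromosome 8 beside Pskh1 (-0.27), and Cela1 on chromosome 15 beside Galnt6 (-0.13). 1700013G24Rik, next to Cela3b, had -0.15. Bcar1, beside Ctrb1, which has no probe, had 1.07 with overlapping groups, and Zfp1 on its other side had 0.29. Both Pb values of Casp9 were above every control, as in 13% of all measured probes. The other measured flanking genes did not separate the groups.

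Genes with the most similar profile over the 5 arrays were sought among 17843 other genes, by the root mean square distance (in log2 units) to the median profile of the members, which stood at 4.27 in Pb replicate 1 and 5.25 in Pb replicate 2 above the control mean. This is a description over 5 arrays, of which 2 are high. The nearest were 2210010C04Rik, a trypsinogen-like gene, at a distance of 0.44, Cpb1, carboxypeptidase B, at 0.67, and the trypsinogen Prss3 at 0.83. After them came Cel, the bile salt-activated lipase (0.95), Pla2g1b, the pancreatic phospholipase (0.96), Sycn, of the zymogen granule (1.22), and Reg1 (1.35). The trypsin inhibitor Spink1 (1.39), the ribonuclease Rnase1 (1.44) and Cpa1, carboxypeptidase A (1.47), completed the 10.

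Taken one by one, Cela3b was nearest to Try5, a trypsin (0.68), and Cpa1 (0.69). Ctrl was nearest to Prss3 (0.23) and Cel (0.24). Ctrc had Cpb1 (0.53) and 2210010C04Rik (0.61) as its nearest genes, and Cela2a the same pair in the other order (0.39 for 2210010C04Rik and 0.78 for Cpb1). Cela1 was nearest to Cttnbp2 (0.12) and Dao (0.13), which are not digestive enzymes. Among the members themselves Ctrc and Cela2a were the closest pair, at 0.46, and Cela3b and Cela1 the most distant, at 3.62.

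The zymogens are activated by trypsin, and genes of that step were measured on the same arrays. Of 10 listed trypsinogens and activators 6 were measured and tested: 3 rose, 0 fell and 3 did not pass (limma, adjusted p under 0.05 over all 24464 probes tested, where 0.0613% passed). The list was drawn up with earlier results of these arrays known and is no independent evidence. Its median log2 difference was 4.25, beside 0.031 over all measured probes. Try5 passed with a difference of 7.24 (limma adjusted p = 0.00905), and Spink1, which inhibits trypsin, with 2.69 (limma adjusted p = 0.0135). Spink1 has 2 probes, and these values are those of the brighter one. The mean difference over both was 1.69. Try5 and Prss2 were under the 30th percentile of the control means and were tested through their Pb values, so for them the count is no support. Without the filter on dim probes 0 probes passed over the whole table. Prss2, another trypsinogen, had 5.67 but did not pass (limma adjusted p = 0.622), with control values of -2.66, -1.7 and -5.38. Ctsb, a lysosomal protease that can activate trypsinogen and is made in many cells, had 0.1.

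Of 30 listed other digestive enzymes and secreted proteins of the exocrine pancreas, 22 were measured and 19 tested: 6 rose, 0 fell and 13 did not pass, with a median log2 difference of 1.59 over the 22. Amy2a5, a pancreatic amylase, passed with 7.84 and Cpa1 with 6.98 (both with a limma adjusted p of 0.00905). These 2 and Cpb1 are among 5 tested genes of the list with control means under the 30th percentile. Those 5 were tested through their Pb values, which covers 3 of the 6 calls. This list too was drawn up with earlier results of these arrays known, so none of the 6 calls is support. Over all tested probes 0.0613% passed. At the other end Reg3g, an antibacterial lectin, had -0.33 and Erp27, a protein of the endoplasmic reticulum, -0.28. In 14 of the 22 genes both Pb values exceeded every control value, as in 13% of all measured probes. Over all probes 15 passed and each was higher in Pb, with 949 higher and 808 lower at an unadjusted p under 0.05. Cela3b and Ctrc are among the 15, a count that supports nothing here because the contrast chose them.

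Transcription factors of acinar cells formed a further list. Of 10 listed, 9 were measured and 6 tested, and the median log2 difference was -0.09. In limma 0 passed, against 0.0613% of all 24464 probes tested. At an unadjusted p under 0.05, 1 was higher and 0 lower, against 949 and 808 among all tested. Ptf1a, the DNA-binding subunit of PTF1, had -1.5, -1.17 and -1.34 in controls and -1.88 and -2.22 in Pb, so both Pb arrays were below the controls. Its partner Rbpjl, which is made in acinar cells, had 1.39, 1.43 and 1.58 in controls and 1.76 and 2.08 in Pb. Of the 9, 1 had both Pb values above every control and 1 below, against 13% and 11.9% of all measured probes. These counts are near the background. Bhlha15, known as Mist1, had a difference of 0.93 with overlapping groups. Gata4 had one of -0.38, with Pb replicate 2 alone low (0.78) and Pb replicate 1 (1.87) above every control. Ptf1a and Bhlha15 were under the filter on dim probes.

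Relatives of the members in blood cells were also measured. Of 27 listed leukocyte proteases of the chymotrypsin fold (neutrophil proteases, granzymes, mast cell chymases and tryptases), 23 were measured and 15 tested. In limma 0 passed, where 0.0613% of all 24464 probes tested did. At an unadjusted p under 0.05 there were 0 as well, against 949 higher and 808 lower among all tested. The median log2 difference of the 23 was 0.13, within a range of -1.58 for Gzmg to 1.12 for Gzmk, both granzymes. Gzmm, another granzyme, had 0.62, and Plau, the urokinase, -1.13. Gzmg, Gzmm and Plau were under the filter on dim probes. For Plau, Pb replicate 2 alone was low (-4.08), and Pb replicate 1 (-1.14) was above every control. Elane, the neutrophil elastase, was singled out after its values were seen, as the elastase of the spleen. It had 5.55, 5.01 and 4.73 in controls and 5.94 and 4.65 in Pb, and its groups overlapped.

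Inhibitors of chymotrypsin and elastase were the next list. Of 20 listed 15 were measured and 12 tested, with a median log2 difference of 0.15. In limma 0 passed the adjusted threshold, where 0.0613% of all 24464 probes tested did. At an unadjusted p under 0.05, 1 was higher and 0 lower, beside 949 and 808 among all tested. Serpina3n, a serpin of the antichymotrypsin group, had the highest difference, 0.91, with both Pb arrays above the controls. Of the 15, 3 had both Pb values above every control and 0 below, against 13% and 11.9% of all measured probes. Serpina1e, of the antitrypsin group, had 0.61. The lowest were Wfdc12 (-0.48) and Serpina1c (-0.29), both under the filter.

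Other cell types of the pancreas were looked for in the same arrays. Of 16 listed endocrine genes 12 were measured, and 6 of them passed the filter on dim probes. Among the 12, 2 had both Pb values above every control and 2 below, and the median log2 difference was 0.1. Over all measured probes 13% were above and 11.9% below in that sense, so these counts are near the background. The summed linear level of the 12 was 13 to 19 in controls, 17.5 in Pb replicate 1 and 18.7 in Pb replicate 2. The largest part of that sum on each array was Abcc8, so it says little of the other genes. As deposited, the sum was 12.8 to 17.9 in controls, 18.8 in Pb replicate 1 and 22.6 in Pb replicate 2. Abcc8 had a difference of 0.08 at its brightest probe and of 0.56 as the mean over 3 probes. No gene of the list had a deposited value at or under 0. A difference above 0 was seen in 9 of the 12. The highest were Neurod1, a transcription factor of islet cells, with 0.92 and Ucn3, a beta cell hormone, with 0.63. For Neurod1, Pb replicate 2 alone was high (1.44), and Pb replicate 1 (-0.27) lay within the range of the controls. The lowest were Gcg, the glucagon gene, with -1.91 and the islet transcription factor Pdx1 with -0.72, both under the filter on dim probes. No insulin gene has a single-symbol probe here. Of 8 listed duct genes 6 were measured, 1 had both Pb values above every control, against 13% of all probes, and the median was -0.21. The highest were Sox9 (0.76) and Car2 (0.2), and the lowest Cftr (-1.49), which was under the filter, and Muc1 (-0.67). Their sum after correction was 142 to 156 in controls, 126 in Pb replicate 1 and 224 in Pb replicate 2. Most of it was Car2, which red cells also make. As deposited the sum was 128 to 164 in controls, 146 in Pb replicate 1 and 25.5 in Pb replicate 2. Its direction in Pb replicate 2 thus rests on the correction. Cftr and Muc1 each had 1 array at or under 0. The 22 digestive and secreted genes summed to 22.7 to 23.7 in controls, 118 in Pb replicate 1 and 169 in Pb replicate 2. As deposited these sums were 23.3 to 24.7, 115 and 258. The 6 trypsinogens and activators summed to 15.1 to 20.2, 62.9 and 92.1, and to 16.3 to 20.6, 66.4 and 105 as deposited. Most of their control sum was Ctsb, which is made in many cells and had a difference of 0.1, so that sum is not the control level of trypsinogens. These sums weigh bright genes most, and not every gene of those lists was higher in Pb. The part of pancreas tissue in the members' signal was not tested.

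**Figure D3:**
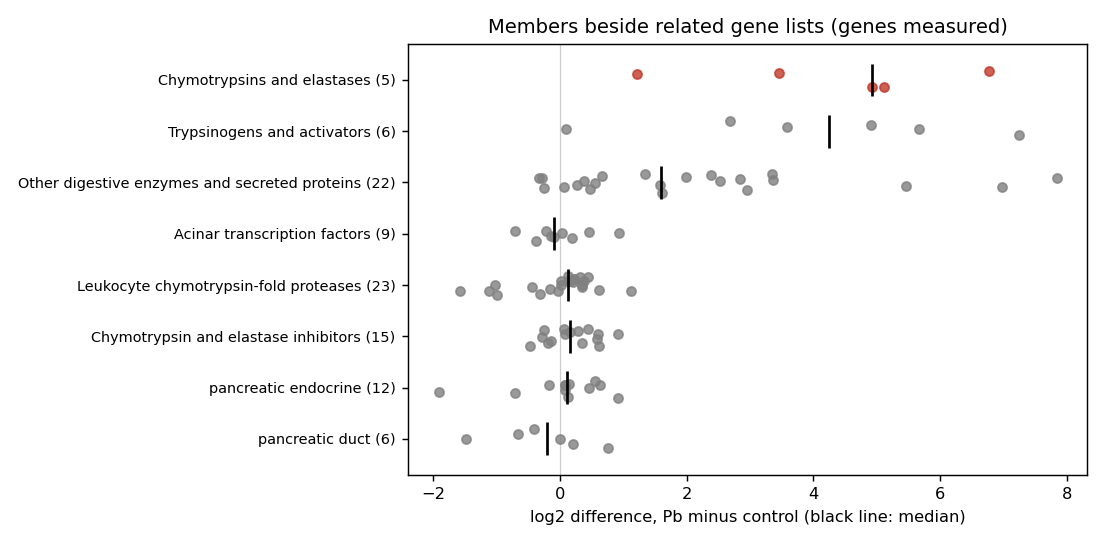
Log2 difference, Pb minus control, of each measured gene in the members (red) and in 7 related lists (grey), with a black line at the median and the number of genes measured in brackets. The members (median 4.93), trypsinogens (4.25) and other secreted proteins (1.59) extend to high values, and the medians of the other 5 lists lie between -0.21 and 0.15.

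The differences of Ctrc, Ctrl, Cela2a and Cela3b were above 0 in each of the 19 alternative settings that were fitted, and their sizes moved. Ctrc ranged from 3.76 to 6.22, Ctrl from 2.94 to 4.09, Cela2a from 3.34 to 5.25 and Cela3b from 4.89 to 7.18. Cela1 ranged from 0.27 to 1.87, and its groups overlapped as deposited on 5 arrays, on all 6 arrays, and with correction over array rows alone. Those of Ctrc and Cela2a overlapped on all 6 arrays as deposited. On 5 arrays as deposited, 4 of the 5 members had both Pb values above every control, as did 19.5% of all measured probes. Without Cela1, left out after its values were seen, the median difference of the other 4 was 5.02. Setting all 6 arrays as deposited side by side brings in Pb replicate 3, which read 0.173 for Ctrc, 1.8 for Ctrl, 2.74 for Cela1, 0.259 for Cela2a and 2.68 for Cela3b. The values of that array are unrelated to the probes and are not read as levels of the genes.

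**Figure D4:**
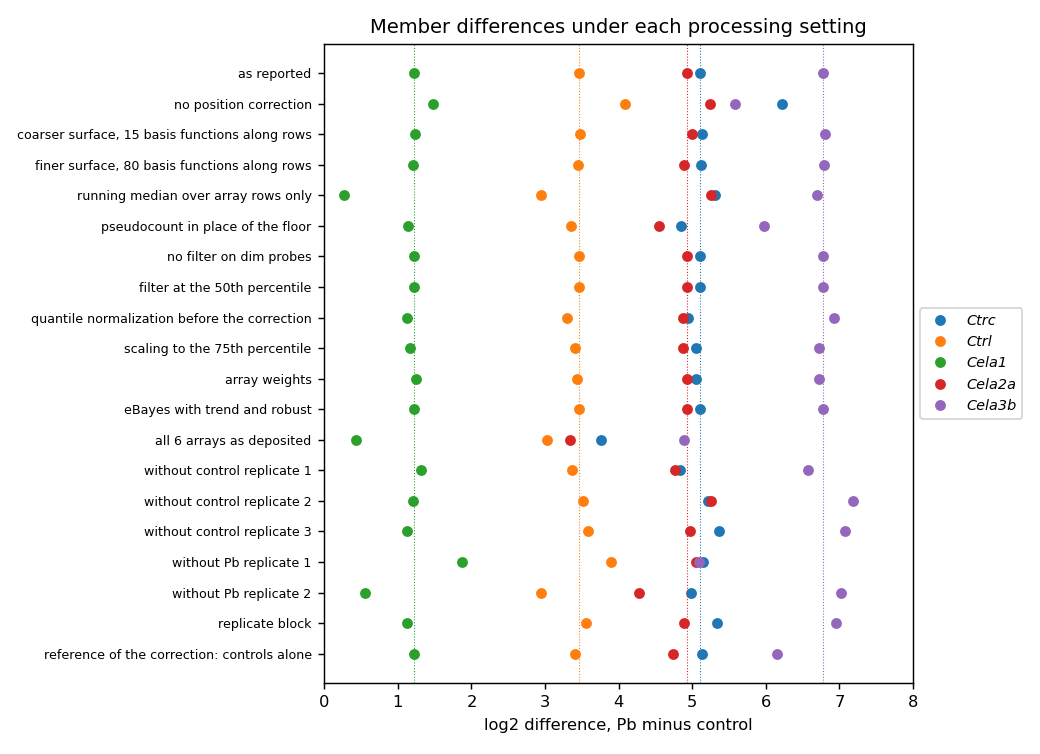
Log2 difference, Pb minus control, of the 5 members under the reported processing and each of 19 alternatives, with dotted lines at the reported values. Every point lies above 0, with Cela1 the closest to it at 0.27 under the running median over array rows.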

How the data were processed

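The authors deposited linear probe intensities, apparently divided by a median per array. For scanner software, background correction and normalization, the steps were not given in the sources used here. Of 35587 probes, 21615 had 1 symbol in the platform annotation, 681 several and 13291 none. Values at or under 0 (151 to 711 per array, none among the members) were raised to the 1st percentile of positive values, and log2 was taken. The reference was the mean of Pb replicate 1 and the 3 controls. Deviations of each array from it were smoothed over array row, column and level (mgcv 1.9.3, bam, 40, 8 and 6 basis functions, 2 rounds) and subtracted. Pb replicate 3 and array rows 402 to 409 were left out. Probes at or above the 30th percentile of the mean (24464 of 34949) entered limma 3.58.1 under R 4.3.3 (lmFit, then eBayes; p-values were two-sided and adjusted over all tested by Benjamini-Hochberg), checked on simulated data. The number of arrays limits the precision. The members and lists were chosen with earlier results of these data known. Named genes are all members, the 2 largest and 2 smallest differences of each related list (brightest probe per gene; endocrine and duct markers by the same rule, applied after their values were seen), the 10 genes of most similar profile and the 2 nearest to each member; others are said to be chosen after their values were seen, and spleen markers serve as a check. Alternatives varied correction, floor, filter, scaling, weights, variance model, arrays and the replicate block.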

Additional observations from a re-analysis of the deposited data

Results flagged for a closer look

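Pb replicate 3 enters no comparison of single genes. Its deposited intensity was above the highest control for Cela3b, 2.68 against 0.451, and for Ctrl, 1.8 against 1.03. It was above all 3 controls for 45.6% of all measured probes. Because that array is unrelated to the others probe by probe, these values are listed without further reading. Control and Pb groups of 3 or fewer arrays are too small to check the values of a single gene for an outlying array.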

How the results depend on the processing

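The members' values rest on 2 Pb arrays and on how position on the array is corrected. The 15 probes past the adjusted threshold (limma) became 0 without position correction, 0 without the filter on dim probes, 0 on all 6 arrays as deposited and 7 under array weights. Leaving out 1 array gave 2 to 2926 probes, the highest without Pb replicate 1, and 4, 2 and 4 without control replicates 1, 2 and 3. The cause was not tested. On all 6 arrays 2 members lay above all controls in every Pb array, and their median log2 difference was 3.34. That median was 4.27 to 5.21 with 1 array left out, the lowest without Pb replicate 2. The position surface was refitted without the array left out. With the replicate block 7 probes passed. Between arrays of the same number the deviations from the group means had r = 0.026 and 0.00016, so the shared numbers were not taken as pairs. Averaging several probes of a gene cannot change the members, which have 1 probe each. Of 20 alternatives, the count of members above all controls stayed within 1.5 times in 19 and their median within 1 SD in 18. Low control signal limits the folds of Ctrc, Cela2a and Cela3b.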
